A study of Saccharomyces cerevisiae with 68 samples.

Results

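The ATG genes of budding yeast are the autophagy genes whose standard symbol is ATG followed by a number. They were taken as every open reading frame of the value table that is the locus tag of such a gene in the RefSeq annotation of assembly R64. The rule used names and no measured value. It found 36 genes among the 6297 reading frames of the table, out of 37 ATG symbols in the annotation, and ATG44 was not analysed here.

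Autophagy carries cytoplasm and organelles to the vacuole, the lysosome of yeast, inside double-membrane vesicles that form in the cytosol. The Atg1 kinase complex starts a vesicle, a phosphatidylinositol 3-kinase complex and vesicles with Atg9 supply lipid signal and membrane, and a pair of ubiquitin-like conjugation systems attach the small protein Atg8 to a lipid of the growing membrane. Receptors tie chosen cargo to Atg8, and enzymes in the vacuole break the delivered vesicle down. The pathway is best known for its induction when nutrients run out, and ATG8 is the classic example of an ATG gene whose transcript rises then.

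Log-phase cultures of 5 Saccharomyces cerevisiae strains in YPD, a rich medium, were moved from 25C to 37C by mixing with prewarmed medium. The strains were K9, M22, RM11-1a, YPS163 and DBY8268, a laboratory strain of S288c background. As background, K9 is a sake yeast, M22 and RM11-1a derive from vineyards and YPS163 was isolated from an oak. RNA was hybridised to 2-colour arrays, which compare a sample and a reference on the same spots. Each strain was sampled 5, 15, 30, 45, 60 and 120 min after heat shock in 2 series, always against RNA of the same strain at 25C, which gave 60 arrays and n = 2 for each strain and time. On 8 further arrays, K9, M22, RM11-1a and YPS163 at 25C were each compared with DBY8268 at 25C, again with n = 2. Values are the deposited log ratios, taken as log2, so that a value of 1 is a 2-fold difference. Whether replicates are separate cultures is not clear from the labels, so p-values cover only the variation among these samples, which can be technical.

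The heat shock itself was plain on every array at 15 min, where the chaperone gene SSA4 lay between 6.05 and 8.54. A time-course array gave a value for 14 to 36 of the ATG genes (median 31), and the median was lowest in YPS163, with 24.5 genes per array. Some arrays stood apart by their labels. In M22 the series 2 arrays at 30 and 45 min, and in RM11-1a 1 array at 30 min, name another 25C reference than the rest of their series. In YPS163 1 array at 60 min is labelled a technical repeat, and both K9 series carried the heat-shocked RNA in the same dye. At 25C the sign of the ratios was read from 2 genes that RM11-1a lacks, LEU2 at −5.57 and URA3 at −6.43 on the 1 RM11-1a array with a value.

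The number of values differed between the genes. ATG27 had a value on all 60 time-course arrays, ATG33 on 59, and ATG14 and ATG32 on 32 each. ATG13, ATG17, ATG18, ATG23, ATG27, ATG5, ATG12, ATG16, ATG19, ATG20, ATG21, ATG26, ATG33, ATG45 and ATG22 were measured at least once for every strain at every time, that is in all 30 groups, and these 15 were among the 4360 genes that entered the first test. ATG8, ATG1, ATG7 and ATG9 were not among them. A second filter, chosen after the values had been seen, therefore tested a gene at each time at which every strain had a value. It admitted 29, 26, 22, 27, 34 and 33 ATG genes from 5 to 120 min. Adjusted p-values below are Benjamini-Hochberg values of limma over all genes tested, with a threshold of 0.05. They come from the first filter for its 15 genes and from the second filter for the other 21.

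The first question was how ATG transcripts changed on average over the 5 strains. Most of those that could be tested were higher at 15 min. Of the 15 genes of the first filter, 13 were higher at 15 min and none was lower in limma, also at an unadjusted p under 0.05, while 38.1% of all 4360 genes were called higher and 39.9% lower at that time. The median of the 15 genes was 0.64, against −0.01 over all genes. The counts of higher genes were 11, 13, 14, 13, 8 and 10 from 5 to 120 min, beside 31.1%, 38.1%, 40.6%, 33.7%, 24.3% and 30.7% of all genes. ATG27 at 5 min was the only one of the 15 called lower at any time, and the shares of all genes called lower from 5 to 120 min were 36.2%, 39.9%, 26.8%, 20.4%, 22.6% and 20.9%. With the second filter, 24 of 26 genes were higher at 15 min, 9 of them by at least 2-fold, and none was lower, also at an unadjusted p under 0.05. Of all genes tested that way, 31.9%, 39.3%, 40.4%, 34%, 25.6% and 31% were higher from 5 to 120 min, and 33.5%, 37.3%, 24.8%, 18.5%, 19% and 17.9% lower.

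**Figure D1:**
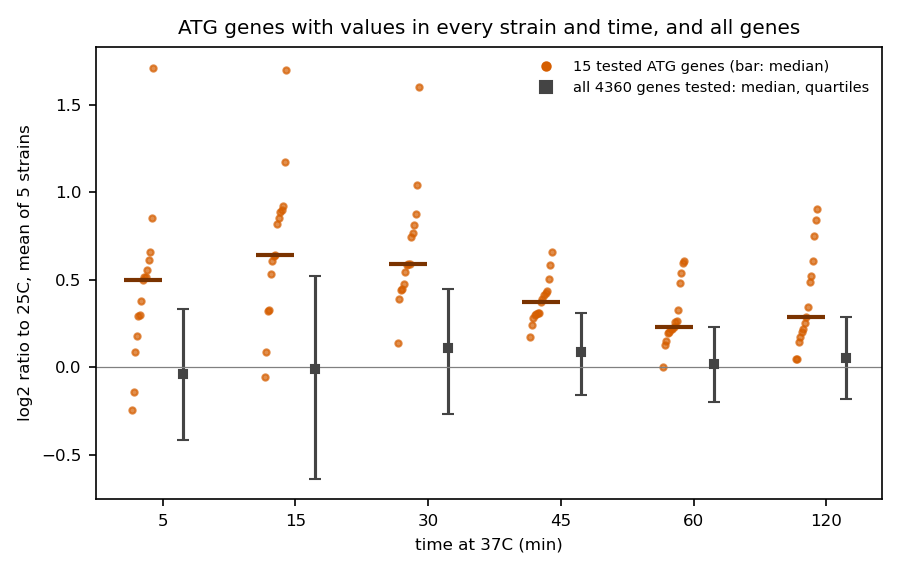
Mean log2 ratio over the 5 strains at each time after heat shock for the 15 ATG genes with values in every group of strain and time (points, with a bar at their median), beside the median and quartiles of all 4360 genes tested. The ATG median is highest at 15 min, at 0.64, and lies above the median of all genes at each of the 6 times.

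Among the 15 genes, ATG12 included, the highest mean came at 5 min for 2 genes, at 15 min for 7, at 30 min for 3, at 45 min for 1 and at 120 min for 2. Of the 2511 genes called higher at any time in the whole table, 13.4%, 40.2%, 19.5%, 15.5%, 3.23% and 8.16% had their highest mean at 5, 15, 30, 45, 60 and 120 min, so the timing of the ATG genes was near that of induced genes in general. ATG13, ATG18, ATG5 and ATG19 were higher at all 6 times, which held for 11.6% of all genes, and 7 further ATG genes at 5 times (7.06% of all genes). ATG12 was called at none, like 42.4% of all genes.

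**Figure D2:**
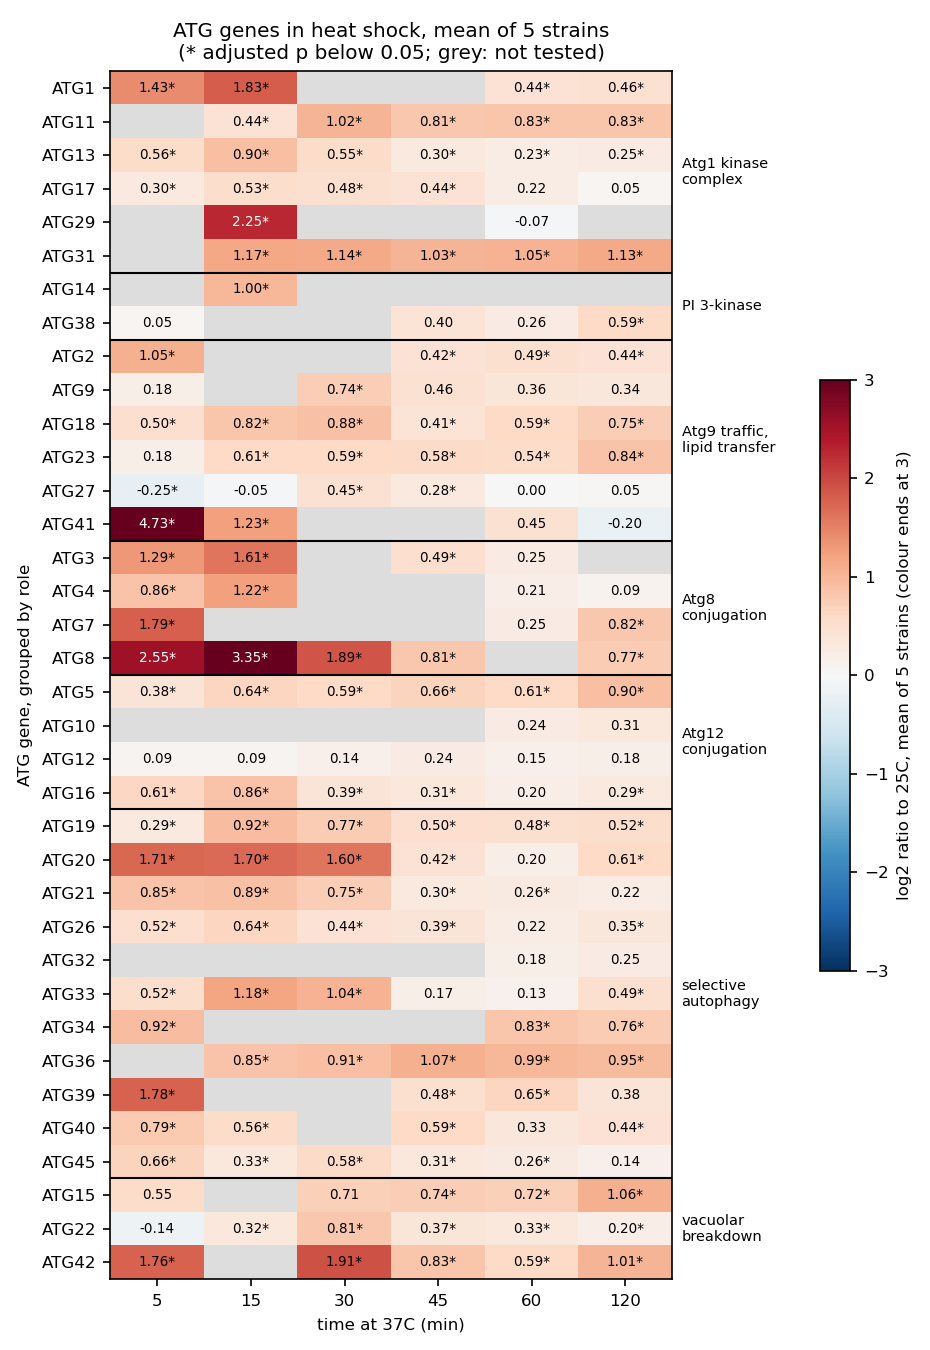
Mean log2 ratio over the 5 strains for each of the 36 ATG genes (down the page, by role) at the 6 times (across), with an asterisk where the adjusted p is under 0.05 and grey where some strain had no value. ATG41 at 5 min (4.73) and ATG8 at 15 min (3.35) are the strongest cells.

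The Atg1 kinase complex and its scaffolds were measured with 6 genes. All 6 were higher at 15 min (median 1.03), beside 39.3% of all genes with the second filter. ATG1 (YGL180W), the protein kinase that starts autophagosome formation, ranged from 0.64 to 2.69 over 7 arrays at 15 min, with a median of 1.73, so every measured array was above 0. Its mean was 1.43 at 5 min and 1.83 at 15 min (SE 0.17, adjusted p = 1.47e-09), and 0.46 at 120 min. ATG29 (YPL166W), which with ATG17 and ATG31 forms the scaffold for starvation-induced autophagy, ranged from 1.49 to 2.43 over 8 arrays at 15 min, with a median of 2.03. Its mean of 2.25 (SE 0.39, adjusted p = 4.07e-05) could be tested only at 15 and 60 min, and at 60 min it was −0.07 and not called. At 60 min 1 M22 array of ATG29 stood at −4.35 and the other at 1.61. The fit corrects for dye with 1 term over all times, so this pair, with opposite dyes, also enters the 15 min values. At 15 min the fitted value was 2.42 in K9, where the arrays read 2.09 and 1.96. In M22 it was 2.33, where the 1 array read 1.93. How far the −4.35 raised the mean of 2.25 was not tested.

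ATG31 (YDR022C), another scaffold subunit, was still high at the end. Its mean was 1.17 at 15 min (SE 0.14, adjusted p = 1.82e-08) and 1.13 at 120 min (adjusted p = 1.84e-07), and the 9 arrays at 120 min lay between 0.20 and 2.01. The regulatory subunit gene ATG13 (YPR185W) ranged from 0.48 to 1.59 over 10 arrays at 15 min (median 0.66), with a mean of 0.90 (SE 0.07, adjusted p = 1.32e-13). ATG17 (YLR423C) had a mean of 0.53 at 15 min (SE 0.13, adjusted p = 0.000364) and was not called at 60 and 120 min. ATG11 (YPR049C), the scaffold of selective autophagy, was highest at 30 min with a mean of 1.02 and still at 0.83 at 120 min (adjusted p = 6.31e-06). At 30 min 1 DBY8268 array of ATG11 stood at 2.35 and its replicate at 0.76, and the other strains lay between 0.52 and 1.05.

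The phosphatidylinositol 3-kinase complex I had 2 genes, ATG14 with a value on 32 of the 60 arrays and ATG38 on 51. ATG14 (YBR128C), the subunit that directs the kinase to autophagy, could be tested only at 15 min, where its mean was 1.00 (SE 0.21, adjusted p = 0.00061). Of its 8 arrays 7 were above 0, up to 1.60, and 1 stood at −1.0. ATG38 (YLR211C), a subunit that holds the complex together, was called only at 120 min, with a mean of 0.59 (adjusted p = 0.0126). There 1 K9 array stood at 3.07 and no other array of ATG38 at 120 min was above 0.70.

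The genes of Atg9 traffic and lipid transfer were mixed. ATG41 (YPL250C), which acts in the movement of Atg9 to the site of vesicle formation, rose more than any other tested ATG gene at any tested time. At 5 min its 10 arrays ranged from 3.28 to 6.07 (median 4.73), all above every 5 min value of the other ATG genes except 3.60 for ATG8 in M22. Its mean was 4.73 at 5 min (SE 0.29, adjusted p = 5.56e-13) and 1.23 at 15 min (SE 0.34, adjusted p = 0.00243), and it was not called at 60 or 120 min.

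ATG2 (YNL242W), the lipid transfer protein of the growing membrane, had a mean of 1.05 at 5 min (adjusted p = 1.48e-07) and 0.44 at 120 min. No YPS163 value was measured for it at 15 min, where its 8 other arrays lay between 0.81 and 1.91. ATG9 (YDL149W), the lipid scramblase that gives the vesicles their name, was called only at 30 min, with a mean of 0.74 (SE 0.20, adjusted p = 0.00177). Its replicates were far apart: at 15 min the RM11-1a arrays stood at −0.87 and 2.04 and the K9 arrays at 1.24 and 1.34. ATG18 (YFR021W), which binds phosphatidylinositol 3-phosphate beside Atg2, was higher at every time, with means from 0.41 at 45 min to 0.88 at 30 min. ATG23 (YLR431C), a traffic factor of Atg9, was called at all times but 5 min, and its mean was highest at 120 min with 0.84. There 1 K9 array stood at 2.51 and its replicate at 0.16. The median over arrays was 0.69 at 120 min and 0.68 at 15 min.

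ATG27 (YJL178C), a membrane protein of the same traffic, was the exception in direction. It fell at 5 min to a mean of −0.25 (SE 0.07, adjusted p = 0.00208), was −0.05 and not called at 15 min, and rose at 30 min to 0.45 (adjusted p = 5.72e-07). At 30 min 9 of its 10 arrays were above 0.

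Atg8 and the enzymes that process and conjugate it all rose where they could be tested early. ATG8 (YBL078C), the ubiquitin-like protein of the autophagosome membrane, had a value on 44 of the 60 arrays. At 15 min its arrays read 2.73 in K9, 3.98 in M22, 2.18 and 3.19 in RM11-1a, 4.00 in YPS163, and 3.56 and 2.85 in DBY8268. All 7 lay above 2, a 4-fold difference. The single arrays of M22 and YPS163 were above all others, and K9 lay within the range of RM11-1a, which overlapped DBY8268. Its mean was 2.55 at 5 min and 3.35 at 15 min (SE 0.20, adjusted p = 8.6e-12). Later means were 1.89, 0.81 and 0.77 after 30, 45 and 120 min, each called.

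ATG3 (YNR007C), the enzyme that joins Atg8 to its lipid, ranged from 0.73 to 2.47 over 9 arrays at 15 min, with a median of 1.55. Its mean was 1.61 (SE 0.11, adjusted p = 3.8e-12) and fell short of the threshold at 60 min (0.25, adjusted p = 0.0718). ATG4 (YNL223W), the protease that trims Atg8 and releases it again, ranged from −0.29 to 2.29 over 9 arrays, with a mean of 1.22 (SE 0.14, adjusted p = 3.52e-07). ATG7 (YHR171W), the activating enzyme shared by both conjugation systems, could not be tested at 15 min for want of YPS163 values. Its 8 arrays there ran from 0.69 to 2.67, and its mean was 1.79 at 5 min (SE 0.13, adjusted p = 8.53e-11) and 0.82 at 120 min.

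Of the 4 genes of the Atg12 conjugation system, 3 could be tested at 15 min and 2 were higher, beside 38.1% of all genes. ATG5 (YPL149W), the protein to which Atg12 is attached, was higher at all 6 times, with a mean of 0.64 at 15 min (SE 0.10, adjusted p = 3.96e-07) and its highest, 0.90, at 120 min (adjusted p = 3.79e-09). ATG16 (YMR159C), which binds the Atg12-Atg5 conjugate, had a mean of 0.86 at 15 min (adjusted p = 3.43e-09). ATG12 (YBR217W), the ubiquitin-like protein itself, had means from 0.09 to 0.24 and passed the threshold at no time; its 9 arrays at 15 min ran from −0.63 to 0.57. ATG10 (YLL042C), the enzyme that conjugates it, could be tested only at 60 and 120 min and was not called there, and its 8 arrays at 15 min were split, with 4 above 0.

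Receptors and other factors of selective autophagy were 11 genes, of which 9, 8, 7, 9, 11 and 11 could be tested from 5 to 120 min. All tested ones were higher at 5, 15 and 30 min, beside 31.9%, 39.3% and 40.4% of all genes with the second filter. At the later times 8, 6 and 7 were higher, beside 34%, 25.6% and 31% of all genes. ATG20 (YDL113C), a sorting nexin of selective autophagy, ranged from 1.19 to 2.27 over the 10 arrays at 15 min (median 1.61), with every array above 1. Its mean was 1.71, 1.70 and 1.60 at 5, 15 and 30 min (at 15 min SE 0.16, adjusted p = 1.76e-11) and 0.42 at 45 min. The 30 min mean was 1.22 without the 3 arrays that name another reference, since the M22 series 2 array stood at 5.65.

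ATG33 (YLR356W), needed for the removal of mitochondria, ranged from 0.12 to 1.89 over 10 arrays at 15 min (median 1.23), with a mean of 1.18 (SE 0.14, adjusted p = 3.22e-09). ATG19 (YOL082W), the receptor that brings aminopeptidase I to the vacuole, ranged from 0.11 to 1.93 over 9 arrays (median 0.85), with a mean of 0.92 (SE 0.13, adjusted p = 1.99e-07). Its paralogue ATG34 (YOL083W), the receptor for alpha-mannosidase, had only 5 values at 15 min, from 0.40 to 2.27, and means of 0.92 at 5 min and 0.83 at 60 min, both called. ATG39 (YLR312C), the receptor for the nuclear envelope, had a mean of 1.78 at 5 min (SE 0.19, adjusted p = 1.32e-08) and 0.48 at 45 min. ATG40 (YOR152C), the receptor for the cortical endoplasmic reticulum, had a mean of 0.56 at 15 min (adjusted p = 0.00117).

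ATG32 (YIL146C), the receptor on mitochondria, was among the most sparsely measured. It had 6 values at 15 min, from −0.99 to 0.76 with a median of 0.11, and was not called at 60 or 120 min, the times at which it could be tested. ATG36 (YJL185C), the receptor on peroxisomes, held its level: its mean was 0.85 at 15 min, 1.07 at 45 min and 0.95 at 120 min (adjusted p = 3.34e-08), with the 10 arrays at 120 min between 0.55 and 1.24. ATG21 (YPL100W), a phosphoinositide-binding relative of Atg18, had a mean of 0.89 at 15 min (adjusted p = 4.56e-10). ATG26 (YLR189C), a sterol glucosyltransferase that serves peroxisome removal in Pichia pastoris, was at 0.64 and ATG45 (YIL024C), described as a receptor for glycogen, at 0.33 at that time, both called.

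The genes of vacuolar breakdown and efflux were 3. ATG42 (YBR139W), a vacuolar carboxypeptidase, ranged from 1.93 to 3.37 over 8 arrays at 15 min, none of them from YPS163, and its mean was 1.91 at 30 min (SE 0.13, adjusted p = 5.31e-13) and 1.01 at 120 min. ATG22 (YCL038C), which exports amino acids from the vacuole, was not called at 5 min and was highest at 30 min with 0.81 (adjusted p = 2.59e-08). ATG15 (YCR068W), the lipase that opens the delivered vesicle, was called from 45 min on, and its highest mean, 1.06 at 120 min (SE 0.30, adjusted p = 0.0056), included 1 YPS163 array at 3.17 whose replicate stood at −0.06.

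The change between 15 and 120 min was tested within each series, where 20 ATG genes had both values in every strain. Of these, 9 fell and 1 rose, beside 27.3% of all 4698 genes lower and 36.5% higher. The median was −0.34, against 0.08 over all genes. ATG8 changed most, by −2.59 (SE 0.25, adjusted p = 8.38e-05), followed by ATG41 at −1.43 (adjusted p = 9.41e-05), ATG4 at −1.22 (adjusted p = 0.000167) and ATG20 at −1.09 (adjusted p = 4.56e-06). ATG33, ATG21, ATG13, ATG16 and ATG17 were the other 5 that fell, at −0.69 to −0.48. ATG17, at −0.48 (adjusted p = 0.0174), was not called without DBY8268 replicate 1 (adjusted p = 0.0589) or K9 replicate 2 (0.0575). ATG5 was the 1 gene that rose, by 0.27 (adjusted p = 0.0253), and that call was lost without the second replicate of any 1 strain (adjusted p from 0.0584 to 0.0919) and without the pairing of arrays in series (0.0853).

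The next question was how the strains compared. At 15 min the first filter's 15 genes gave 8 higher and 0 lower in K9 (26.9% of all genes higher), 8 and 0 in M22 (30.9%), 6 and 0 in RM11-1a (24.4%), 10 and 0 in YPS163 (30.7%), and 9 and 1 in DBY8268 (21.5%). Called lower were 31.5%, 33.1%, 29.2%, 24.4% and 31.2% of all genes in the same order of strains, and the 4 strains with 0 lower ATG genes in limma also had 0 at an unadjusted p under 0.05. The fitted ATG8 value at 15 min was 2.89 in K9, 4.14 in M22, 2.69 in RM11-1a, 3.84 in YPS163 and 3.21 in DBY8268. Where 1 array stands for a strain, as for ATG8 in K9, M22 and YPS163, the fitted value includes a dye correction and so differs from the array. The same holds for K9 with 2 arrays, since both K9 series carried the heat-shocked RNA in the same dye. ATG9 in K9, for example, was fitted at 1.64 with arrays at 1.24 and 1.34.

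Strain differences were tested with an F test over the 5 strain means at each time. At 5 min none of the 15 genes passed limma's threshold, and 3 had an unadjusted p under 0.05, while 8.44% of all genes passed. At 15 min 4 genes passed (25.4% of all genes) and at 30 min 5 (36.9%). The times 45, 60 and 120 min had 1 gene each (22%, 24% and 17.5% of all genes). The arrays of a series share a 25C reference label, and with the series as a replicate block 3, 7, 7, 5, 2 and 4 of the 15 genes passed from 5 to 120 min, beside 26.9%, 48.4%, 57.6%, 40.3%, 45.3% and 36.4% of all genes. With the series as a random block 0, 2, 4, 0, 1 and 1 passed, beside 7.55%, 23%, 34.9%, 19.7%, 21.9% and 15.6%. With each time fitted alone, which admits 21 to 33 ATG genes, only 60 min had any, with 2 that did not include ATG13 (adjusted p = 0.155). The shares of all genes were then 0%, 0.582%, 4.09%, 3.5%, 8.79% and 2.84%.

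At 15 min ATG13, ATG26, ATG5 and ATG27 differed between strains. Of the contrasts of 1 strain with the other 4 given next, for these genes and ATG45, each was lost with 15 min fitted alone (adjusted p from 0.0777 to 0.236). ATG13 read 1.49 and 1.59 in M22, against 0.58 and 0.48 in K9, 0.61 and 0.59 in RM11-1a, 0.63 and 1.39 in YPS163, and 0.73 and 0.68 in DBY8268. Both M22 arrays lay above all others, and the M22 mean exceeded that of the other 4 strains by 0.80 (adjusted p = 0.00113; 7.82% of all genes were called higher in M22 in that comparison). The F test (adjusted p = 0.00408) was lost when M22 was left out (0.462) or arrays were scaled to one spread (0.0665). It was kept in each of the 6 fits without 1 series in which the gene could still be tested. Neither M22 series was among those left out, because the other one lacked a value at some time.

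ATG26 read 2.01 and 1.16 in YPS163, against 0.16 and 0.38 in K9, 0.45 and 0.93 in M22, −0.20 and 0.63 in RM11-1a, and 0.60 and 0.02 in DBY8268. Both YPS163 arrays were the highest, by 1.18 on average over the other strains (adjusted p = 0.00699; 4.77% of all genes higher), and without YPS163 replicate 1 the difference was 0.63 (adjusted p = 0.413). ATG5 ran opposite: DBY8268 arrays read 0.13 and −0.32, against 0.56 to 1.42 in the other strains, without overlap. The log2 difference of DBY8268 from the other 4 strains was −0.92 (adjusted p = 0.0123; 8.42% of all genes lower), and −0.62 without DBY8268 replicate 2 (adjusted p = 0.346). The F test of ATG26 (adjusted p = 0.0119) was lost without YPS163 replicate 1 (0.385). That of ATG5 (0.0328) was lost without M22 replicate 2 (0.0876) or either DBY8268 replicate (0.0512 and 0.388).

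ATG27 was also lowest in DBY8268, at −0.48 and −0.57, against −0.37 to 0.45 in the other strains (difference −0.59, adjusted p = 0.0245), again without overlap. That call was not kept without either DBY8268 array, without M22 replicate 2 or without RM11-1a replicate 2 (adjusted p from 0.0559 to 0.317), and its F test (0.044) was lost in 6 of the 10 fits without 1 series. ATG45 in M22 read −0.48 and −0.10 and was lower than in the other 4 strains by a log2 difference of −0.77 (adjusted p = 0.0304; 6.49% of all genes lower), which was lost without M22 replicate 2 (adjusted p = 0.302).

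No gene of the 15 passed against the other strains in K9 (3.78% of all genes in either direction) or in RM11-1a (3.6%). In each of these strains 2 genes had an unadjusted p under 0.05 with limma. The smallest p belonged to ATG19 in K9, with arrays at 1.49 and 1.93 and a difference of 1.03 (adjusted p = 0.0597), and to ATG45 in RM11-1a, with arrays at 0.65 and 0.94 and a difference of 0.58 (adjusted p = 0.218).

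The second filter added ATG3 and ATG4 to the strain differences at 15 min, among 23.2% of all genes tested that way. ATG3 read 2.04 and 2.47 in K9, 1.55 and 2.21 in M22, 0.74 and 1.44 in RM11-1a, 1.56 in YPS163, and 1.05 and 0.73 in DBY8268. In the limma fit, K9 lay above the mean of the other 4 strains by 1.04 (adjusted p = 0.0249, 1.98% of all genes higher). The dye correction put K9 at 2.44 there, while its arrays had a mean of 2.26. DBY8268 differed from the mean of the 4 strains other than itself by −0.90 (adjusted p = 0.0341, 6.93% lower). On the arrays, however, K9 overlapped M22 and DBY8268 overlapped RM11-1a. The F test of ATG3 (adjusted p = 0.00636) was lost without DBY8268 replicate 2 (0.0509) or without the dye term (0.0602). The ATG4 call (0.0178) rests on 1 YPS163 array at 2.29 and was lost without the dye term (0.299), either M22 replicate (0.0556 and 0.0638) or RM11-1a replicate 1 (0.0976).

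**Figure D3:**
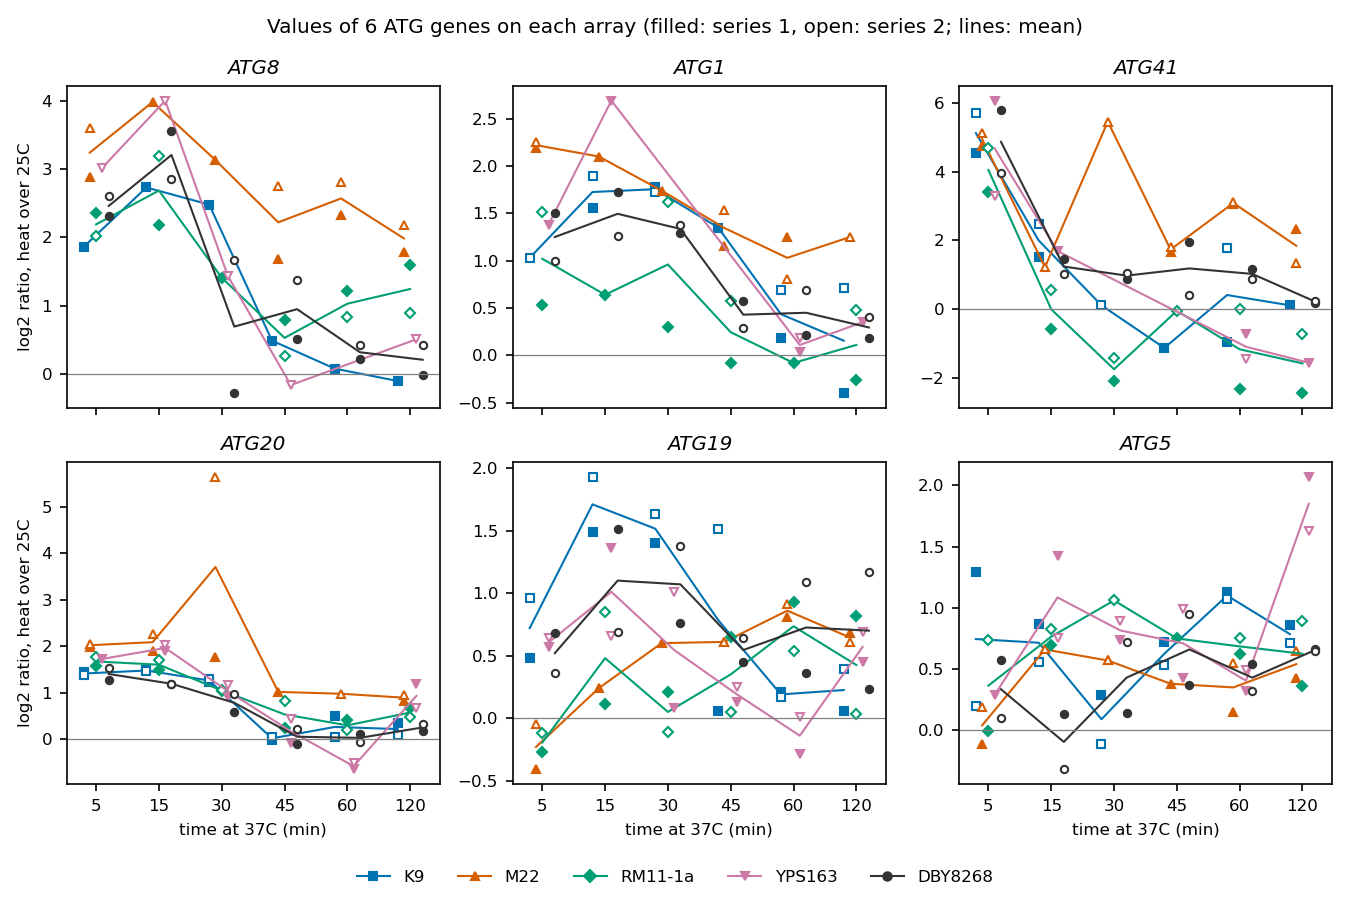
Deposited log2 ratio of every measured array (filled points, series 1; open points, series 2; lines, mean of a strain) against minutes after heat shock for ATG8, ATG1, ATG41, ATG20, ATG19 and ATG5 in the 5 strains. ATG8 in M22 stays at 1.79 and 2.18 at 120 min, and ATG20 in M22 shows the 5.65 of series 2 at 30 min.

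At 30 min the arrays of M22 carried several of the differences. ATG20 read 1.77 and 5.65 in M22, against 0.59 to 1.30 in the other strains (F test adjusted p = 0.000152). The value 5.65 comes from an array that names another 25C reference, and without the 3 such arrays the adjusted p was 0.0251, while without M22 it was 0.271. ATG21 on the same arrays read 0.77 and 2.61 in M22, against 0.07 to 1.05 in the other strains, and its call (0.00219) was lost both without the 3 arrays (0.124) and without M22 (0.146). ATG41, not tested at 30 min, read 5.46 on the same M22 array, against −2.09 and −1.41 in RM11-1a, 0.11 in K9, and 0.89 and 1.06 in DBY8268. Whether the other reference label accounts for these values was not tested.

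ATG13 at 30 min had 1 M22 array at 1.20, above the 0.00 to 0.77 of the other strains (adjusted p = 0.0103, 0.617 without M22 and 0.0672 with arrays scaled to one spread). ATG19 read 1.40 and 1.63 in K9, against 0.60 in M22, 0.21 and −0.11 in RM11-1a, 0.08 and 1.01 in YPS163, and 0.76 and 1.38 in DBY8268. Its call (adjusted p = 0.0243) was lost without K9 replicate 2 (0.0588), M22 replicate 2 (0.0562) or RM11-1a replicate 2 (0.0793), and without the 3 arrays of another reference label (0.134). ATG45 read 0.90 and 1.65 in RM11-1a, against −0.38 to 0.93 in the other strains, and its call (0.00925) was lost without RM11-1a replicate 2 (0.0708) and without the 3 arrays (0.0928).

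At later times single strains stood out. ATG13 at 60 min read 0.82 and 0.87 in M22, against −0.32 to 0.41 in the other strains (F test adjusted p = 0.0112). That call was lost without M22 (0.854) and with arrays scaled to one spread (0.0764). ATG5 at 120 min read 2.07 and 1.63 in YPS163, against 0.36 to 0.89 in the other strains, with no overlap (F test adjusted p = 0.00753). The call was kept in each of the 6 fits without 1 series in which the gene could still be tested. YPS163 series 1, which holds the 2.07, was not among those left out, because series 2 has no value at 5 min. The ATG5 call was lost with arrays scaled to one spread (0.0747) and with 120 min fitted alone (0.0854). ATG45 at 45 min (adjusted p = 0.0302) was lowest in M22, at −0.44 and −0.34, and 1 DBY8268 array stood at 1.48. The call was lost without DBY8268 replicate 2 (0.074), K9 replicate 2 (0.0635) or M22 replicate 2 (0.251).

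From 45 min on the highest ATG8 ratios were those of M22, each set against the strain's own 25C RNA. At 25C the 1 M22 array with a value read −1.78 against DBY8268, so a higher ratio is not by itself a higher level. At 45 min ATG8 read 1.69 and 2.75 in M22, against 0.49 in K9, 0.79 and 0.27 in RM11-1a, −0.16 in YPS163, and 0.52 and 1.38 in DBY8268. At 60 min M22 read 2.33 and 2.81, against 0.08 in K9, 1.22 and 0.84 in RM11-1a, and 0.22 and 0.42 in DBY8268, with no YPS163 value and so no test. At 120 min M22 read 1.79 and 2.18, against −0.10 in K9, 1.60 and 0.89 in RM11-1a, 0.51 in YPS163, and −0.01 and 0.43 in DBY8268. Both M22 arrays were thus the highest at these 3 times. The F test of the second filter was called at 30 min (adjusted p = 0.0194; 33.5% of all genes) and 45 min (0.0317; 19.4%) and not at 120 min (15.6%). Both calls were lost without M22 (0.224 and 0.634), the one at 30 min also without DBY8268 replicate 1 (0.131) or M22 replicate 2 (0.0673), and the one at 45 min without either M22 replicate (0.104 and 0.406). The 2.75 of M22 at 45 min comes from an array that names another 25C reference, and without the 3 such arrays the adjusted p at 45 min was 0.266.

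ATG41 at 60 min read 3.06 and 3.12 in M22, against −0.95 and 1.77 in K9, −2.34 and 0.00 in RM11-1a, −0.73 and −1.46 in YPS163, and 1.16 and 0.89 in DBY8268. Both M22 arrays were the highest, and the call (adjusted p = 0.00663; 19.9% of all genes) was lost without M22 (0.34) or without either M22 replicate (0.0901 and 0.0895). ATG34 at 60 min differed through 1 YPS163 array at −1.09, against 0.45 to 1.74 in the other strains (adjusted p = 0.000761).

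The last comparison set the RNA of each strain at 25C, before heat shock, against that of DBY8268. A gene that a strain lacks also reads low in such a ratio, as LEU2 (−5.57) and URA3 (−6.43) did in RM11-1a. Whether differences in gene sequence between the strains enter the ratios below was not tested, so a lower ratio need not be a lower transcript level. Of the 36 genes, 34 had enough values; ATG10 had 5 of 8 and ATG40 none. In K9 1 gene was higher and none lower, beside 7.86% of all 5306 genes higher and 6.05% lower. In M22 2 were higher and 7 lower (10.2% and 13%), in RM11-1a 2 and 3 (7.75% and 6.65%), and in YPS163 0 and 9 (7.99% and 12.7%). In limma at an unadjusted p under 0.05, 1 gene was lower in K9 and 1 higher in YPS163. The mean of the 4 strains was higher than DBY8268 for 4 genes and lower for 8, beside 18.7% and 22.1% of all genes. All 8 arrays share DBY8268 RNA, so the mean leaves out the spread of DBY8268 itself.

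**Figure D4:**
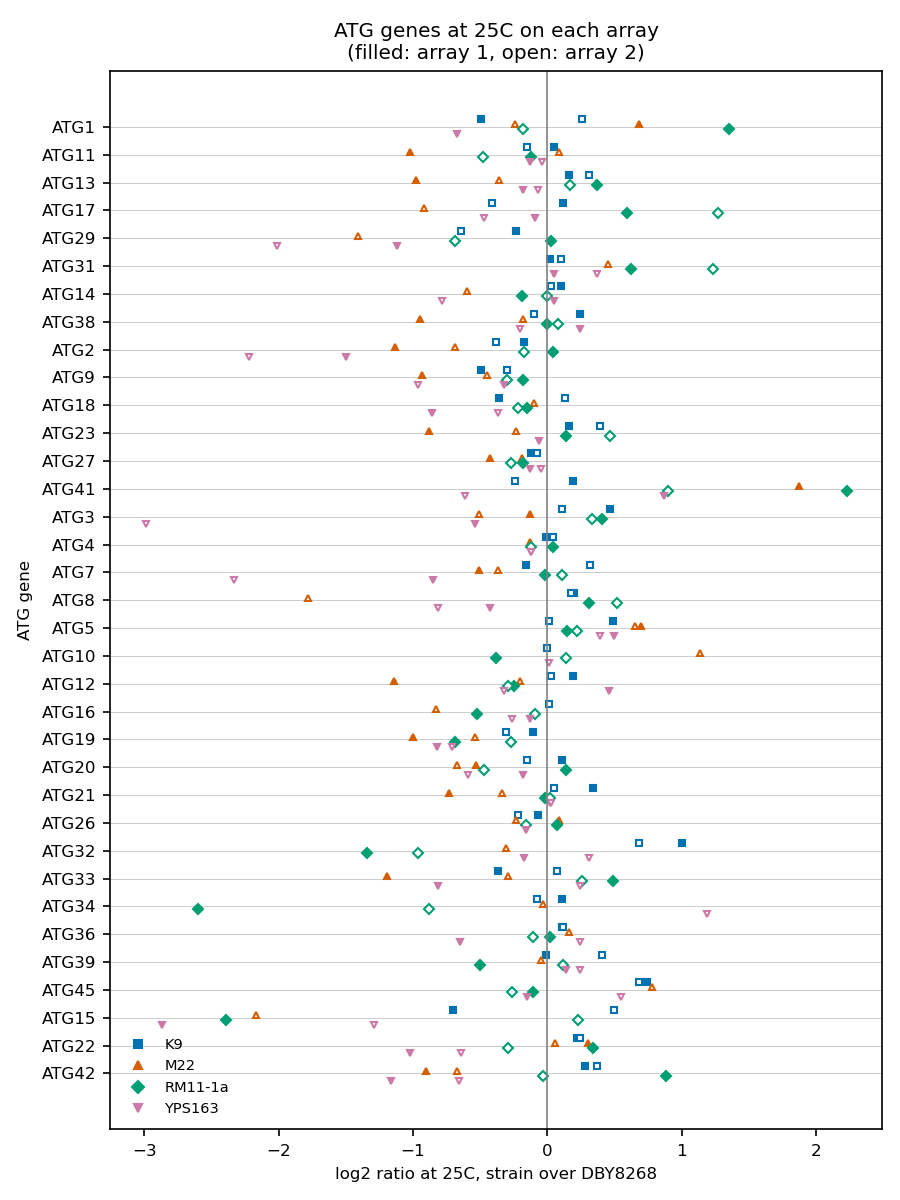
Deposited log2 ratio at 25C of each array for K9, M22, RM11-1a and YPS163 over DBY8268 for the 35 ATG genes with a value. ATG15 and ATG2 lie below −1 on both YPS163 arrays, and ATG41 is above 0 on the measured arrays of M22 and RM11-1a.

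ATG15, the vacuolar lipase gene, was lower than in DBY8268 in several strains. It read −0.70 and 0.50 in K9, −2.17 on the 1 M22 array, −2.39 and 0.23 in RM11-1a, and −2.87 and −1.29 in YPS163. The fitted values were −3.07 in M22 (adjusted p = 0.00383), −1.08 in RM11-1a (0.0398) and −2.08 in YPS163 (0.00319). Replicate 1, which has the opposite dye orientation to replicate 2, was the lower in each strain that has both, and the M22 value is the 1 array corrected for that. Without the dye term M22 was at −2.17 and YPS163 at −2.08, and neither was called (adjusted p = 0.125 and 0.0606), nor was RM11-1a at −1.08 (0.342). YPS163 also lost the call without its replicate 2 (0.0502), and RM11-1a, at −0.47, without its replicate 1 (0.357).

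ATG8 at 25C was lower in M22 and YPS163. It read −1.78 on the 1 M22 array (fitted −1.75, adjusted p = 0.00646) and −0.43 and −0.81 in YPS163 (adjusted p = 0.0483), against 0.20 and 0.18 in K9 and 0.31 and 0.52 in RM11-1a. ATG2 read −1.13 and −0.69 in M22 (adjusted p = 0.0203) and −1.5 and −2.22 in YPS163 (adjusted p = 0.00114), and lay between −0.38 and 0.04 in K9 and RM11-1a. In YPS163 ATG3, ATG7, ATG29, ATG42, ATG22 and ATG19 were called lower as well, with fitted values from −1.77 for ATG3, whose arrays read −0.54 and −2.99, to −0.77 for ATG19. In M22 ATG29, ATG19, ATG13 and ATG20 were the other lower genes, from −1.07 to −0.60. The −1.07 of ATG29 is a dye-corrected fit to the 1 M22 array with a value, which read −1.41.

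ATG41 was higher at 25C in M22 and RM11-1a. It read 1.87 on the 1 M22 array (fitted 1.33, adjusted p = 0.0354) and 2.23 and 0.90 in RM11-1a (1.57, adjusted p = 0.00578), against 0.19 and −0.24 in K9 and 0.87 and −0.61 in YPS163. Without the dye term M22 was not called (adjusted p = 0.0575), and RM11-1a was not without its replicate 1 (0.123). ATG5 in M22 read 0.70 and 0.65 (adjusted p = 0.022) and ATG31 in RM11-1a 0.62 and 1.23 (adjusted p = 0.0146). Each of these was lost without either replicate of its strain (adjusted p from 0.0666 to 0.154).

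The mitochondrial receptor gene ATG32 differed in direction between strains at 25C. It read 1.00 and 0.68 in K9 (0.84, adjusted p = 0.0364), the only ATG call in that strain, and −1.34 and −0.96 in RM11-1a (−1.15, adjusted p = 0.0117), against −0.31 on the 1 M22 array and −0.17 and 0.31 in YPS163. The K9 call was lost without K9 replicate 1 (0.511) or 2 (0.0899) or RM11-1a replicate 1 (0.0527), and the RM11-1a call without either RM11-1a replicate (0.164 and 0.0678). ATG34 in RM11-1a read −2.60 and −0.88 (−1.74, adjusted p = 0.0289). ATG1 was called in no strain at 25C. ATG2, ATG8, ATG15, ATG29, ATG32 and ATG41 passed the F test over the 4 strains, among 10.8% of all genes.

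Autophagy genes that carry other names were also counted at 15 min, when 38.1% of all genes were higher and 39.9% lower. Of 18 such genes listed, 14 could be tested with the first filter, and 9 were higher and none lower (median 0.44). The vacuolar proteases led, PRB1 with a mean of 3.01 and PEP4 with 1.71, followed by SNX4, the sorting nexin partner of Atg20, with 1.65, and VPS34, the phosphatidylinositol 3-kinase, with 0.94. Its partner VPS30 had a mean of 0.89 and AMS1, the alpha-mannosidase carried by Atg34, 2.94 with the second filter, all called. Of 6 genes of TOR complex 1 and linked kinases, 4 were higher and 2 lower, a lower count near the share of all genes. The complex subunit gene LST8 had a mean of 3.54 at 5 min and 1.75 at 15 min, and the kinase gene NPR1 0.82, whereas SCH9 was at −0.59 and KOG1 at −0.18. Of 8 genes of transcription regulators reported to act at ATG promoters, 4 were higher and 1 lower, among them RPH1 at 0.76 and GCN4 at −1.12. With the second filter 3 of these 8 were higher and 1 lower, and the count of higher genes is near the share of all genes under either filter.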

How the data were processed

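Members and gene lists were chosen with earlier results of these data known. The deposited table holds the authors' log2 ratios, 1 per reading frame and array; log base, normalization, centring and software are not given in the sources used here. Base 2 was assumed, and scale and centring are unknown. The median of an array ran from −0.17 to 0.28 after heat shock and from −0.09 to 0.03 at 25C. All replicate pairs, those with opposite dyes included, correlated positively (lowest r = 0.293), so no sign was changed. Identical values made up 0.431% to 1.68% of a replicate pair. R64 locus tags were found for 5832 of the 6297 reading frames.

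Linear models with moderated variances (limma 3.58.1, R 4.3.3, statmod 1.5.0) were fitted over all genes: 30 group means and a dye term on 60 arrays, the 120 minus 15 min difference within series, and 4 strain means and a dye term at 25C, where a gene needed 6 of 8 values. Moderated SDs had a median of 0.294 after heat shock and 0.245 at 25C. The fits were tested on simulated data: of genes changed by a log2 of 0.5 on average at 15 min 86.6% were called, and of genes changed by 1 in 1 strain the F test called 40.3%. The simulation drew independent noise for each array and changed few genes, unlike these data, so these shares may not hold here.

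Arrays of a series carry the same 25C reference label, apart from 3, and their deviations from the group means correlated in every pair of times in K9 (lowest r = 0.188), RM11-1a (0.407) and YPS163 (0.305), less in M22 (0.0909) and DBY8268 (0.0379). At 25C replicate and dye are the same term, so that fit holds the replicate block. Named genes were ATG8, ATG1, ATG9, ATG7, ATG19 and ATG32 whatever their result; genes called at 15 min with a mean of at least 1; the 4 smallest F-test p at 15 and at 30 min; the 3 highest and 3 lowest changes; per strain the 2 highest and 2 lowest called at 25C and the smallest p against the other 4 strains. Other members, and single arrays picked out in the text, were named after their values were seen, with the second filter's genes among them. Alternatives were scalings, blocks, dye and array-code terms, stricter and looser filters and left-out arrays. Promoter and protein sequences were not used here.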

Additional observations from a re-analysis of the deposited data

Results flagged for a closer look

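The results below were picked out because a test of the difference between strains passed the threshold of limma (adjusted p under 0.05). In the heat response these were, at 15 min, ATG13 (adjusted p = 0.00408), ATG26 (0.0119), ATG5 (0.0328) and ATG27 (0.044). At 30 min they were ATG20 (0.000152), ATG21 (0.00219), ATG45 (0.00925), ATG13 (0.0103) and ATG19 (0.0243). Later ones were ATG45 at 45 min (0.0302), ATG13 at 60 min (0.0112) and ATG5 at 120 min (0.00753).

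With the filter by time, ATG3 (0.00636) and ATG4 (0.0178) at 15 min, ATG8 at 30 min (0.0194) and 45 min (0.0317), and ATG41 (0.00663) and ATG34 (0.000761) at 60 min were added. At 25C the strains differed in ATG8 (0.0221), ATG2 (0.0245), ATG32 (0.0252), ATG15 (0.0278), ATG29 (0.0478) and ATG41 (0.0481). Of the 25C differences, ATG15 (0.386), ATG29 (0.153) and ATG41 (0.172) were not called without the dye term. All 6 were lost without K9 replicate 1 (adjusted p from 0.0532 to 0.0996).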

How the results depend on the processing

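Of the single-gene means, changes and strain contrasts recomputed here, none changed sign under the alternatives run. Counts and F tests have no sign, so this does not cover them. For single-gene results, F tests included, the alternatives other than leaving out 1 replicate lost the call in 80 cases. They gained it in 2 and left it as it was in 381. The promoter motif search was not run. Counts of ATG genes called that moved by over 1.5 times were these. With the filter by time, chosen after the data had been seen, the mean response was called in 23, 24, 23, 17 and 22 genes at 5, 15, 45, 60 and 120 min. That filter tested 29, 26, 27, 34 and 33 ATG genes at these times, against 15. Strain differences were called in 2 genes at 45 and 3 at 60 min. Single strains at 15 min gave 97 calls against 42, from 27 to 36 genes per strain against 15. Contrasts of 1 strain with the others gave 8 against 5, from 26 genes against 15. The median at 15 min was 0.87. With each time fitted alone, which admits 21 to 33 ATG genes, the mean response was called in 22, 23, 21, 16 and 21 genes. Strain differences were then 0 at 15, 30, 45 and 120 min and 2 at 60 min. Single strains gave 65 calls, 1 strain against the others 0, and the median was 0.86. With arrays scaled to one spread no strain difference was called at 45, 60 or 120 min (0 each), and 3 gene and strain pairs against the other strains. Strain differences at 45 min were 0 without the dye term. With the series as a random block strain differences were 2 at 15 and 0 at 45 min. With the array code prefix as covariate they were 1 and 0, the mean response at 45 min 5, and pairs against the other strains 1. Without the 3 arrays of another reference label 2 strain differences were called at 30 and 3 at 60 min. Without M22 there were 1, 2 and 0 at 15, 30 and 45 min, and the mean response was called in 8 genes at 45 and 5 at 60 min.

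With the replicate block, that is the pairing of arrays in series, strain differences were called in 3, 7, 5, 2 and 4 genes at 5, 15, 45, 60 and 120 min, and 9 gene and strain pairs against the other strains. The block moved no other of these counts by over 1.5 times. The change from 15 to 120 min gave 6 genes without the block, against 10. That fit tested the 15 genes of the first filter, against 20, and so left out ATG8, ATG41 and ATG4, which were among the 10. Over series with all values the change also gave 6 genes. There ATG8, ATG41, ATG4 and ATG13 could not enter, since each lacked a value at 15 or 120 min. Both counts thus reflect the genes admitted as well as the fit. At 25C, genes with all 8 values gave 15 single-strain calls against 24, and 6 on the mean against 12. That setting leaves out ATG8, ATG15, ATG29, ATG32 and ATG41 among others, with 7 values each, so fewer than the 34 genes of the main fit were tested.

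Leaving out 1 series at a time lowered the number of genes that could be tested, to between 6 and 14 of 15. Over these fits the mean response was called in 4 to 11, 5 to 12, 6 to 13, 5 to 10, 3 to 7 and 3 to 9 genes from 5 to 120 min, and strain differences in 0 to 1, 0 to 5, 1 to 6, 0 to 2, 0 to 2 and 0 to 3. Single strains at 15 min gave 14 to 39 calls, 1 strain against the others 1 to 5, and the median 0.50 to 0.84. With the filter by time 16 to 24 genes were called at 15 min. The change gave 7 to 12 calls. At 25C single strains gave 14 to 25, with the lowest without M22 replicate 2, and the mean 7 to 12, with the lowest without K9 replicate 1.

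With n = 2, missing spots, an unknown scale and 1 reference RNA behind each ratio, small strain differences may have been missed. Of genes simulated with a log2 difference of 0.5 in 1 strain, the F test at 15 min called 2.99%. That simulation had independent arrays and few changed genes, while 25.4% of all genes passed in the data, so its share may not hold here. Of the 9 ATG genes called in M22 at 25C, ATG41, ATG15, ATG8 and ATG29 rest on 1 array each.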

Other observations

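Heat-shock ratios are set against the same strain at 25C, and the 25C arrays set each strain against DBY8268. The sum of a strain's mean 25C ratio and its mean 15 min ratio would therefore be its 15 min level on the scale of DBY8268 at 25C. This holds only if the 25C ratio between strains reflects transcript level alone, which was not tested. The sums are given as values with no test, since 25C RNA of the strain enters both terms and may come from different cultures. For ATG13 the 15 min ratio was 0.53 for K9, 1.54 for M22, 0.60 for RM11-1a, 1.01 for YPS163 and 0.705 for DBY8268, and the sum was 0.765, 0.87, 0.87, 0.885 and 0.705 in the same order. The sums spanned less than the ratios.

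ATG20 had 15 min ratios of 1.48 (K9), 2.09 (M22), 1.605 (RM11-1a), 1.965 (YPS163) and 1.195 (DBY8268), with sums of 1.46, 1.49, 1.44, 1.58 and 1.195. For ATG8 the single 15 min arrays of M22 (3.98) and YPS163 (4.00) gave sums of 2.20 and 3.38, against 2.92 for K9, 3.10 for RM11-1a and 3.205 for DBY8268. The M22 sum also rests on 1 array at 25C (−1.78), and the K9 sum on 1 array at 15 min. For ATG5 the sums spread further, at 0.965 for K9, 1.335 for M22, 0.95 for RM11-1a and 1.53 for YPS163, against −0.095 for DBY8268.

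Across the 30 group means of strain and time, which share arrays of a series, the 105 pairs among the 15 ATG genes had a median Pearson r of 0.15, from −0.45 for ATG17 with ATG5 to 0.93 for ATG20 with ATG21, and the median over all pairs of the 4360 genes was 0.04. ATG20 and ATG21 both have their highest value on the M22 series 2 array at 30 min.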
